A study of Mus musculus with 23 samples.

Results

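The CHD family is a group of 9 chromatin remodelling enzymes in the mouse, Chd1 to Chd9, and their messenger RNA was followed in brain tissue of mice that carry an edited allele of Grin2b, with and without foot-shock. The members were chosen by gene name, 9 of the 18578 genes in the table, and all 9 were among the 17118 genes with a mean normalized count of at least 10 that were tested. The libraries fell into 4 groups: 6 heterozygous foot-shock (HT shock), 6 heterozygous control (HT control), 5 wild-type foot-shock (WT shock) and 6 wild-type control (WT control). HT mice carry 1 copy of the Grin2b-C456Y allele, named for an amino acid change in GluN2B, a subunit of the NMDA-type glutamate receptor. Foot-shock is an aversive electrical stimulus delivered to the paws. All mice were male and of the strain C57BL/6J, and the tissue is labelled brain with no region named. The labels give an age of postnatal day 17 whereas the series text speaks of adults, so the age is unresolved. Nothing in the labels ties a library to an animal of its own, and the p-values therefore describe variation among libraries that may be technical.

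CHD proteins use ATP to slide, space or evict nucleosomes, the spools of histone around which DNA is wound. Their paired chromodomains and their helicase-like motor give the family its name, and they differ in the domains around that core. Chd1 and Chd2 form a first subfamily, tied to transcribing RNA polymerase. Chd3, Chd4 and Chd5 form a second, the motor subunits of the NuRD complex, which couples nucleosome sliding to histone deacetylation. Chd6, Chd7, Chd8 and Chd9 are the third, which acts at promoters and enhancers. Several members are known from human neurodevelopmental disorders: CHD2 from epilepsy, CHD7 from CHARGE syndrome and CHD8 from autism.

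The 300 bases around the start of Chd6 are shown because Chd6 was the member whose level passed the test, and those of Chd8 because this member of the same subfamily had a difference of opposite sign. Each runs from 250 bases before to 50 bases after the start in RefSeq (GRCm38.p6), 5′ to 3′ on the strand of the gene. Capitals mark the CCAAT motif, which reads ATTGG where it lies on the opposite strand.
Chd6 promoter: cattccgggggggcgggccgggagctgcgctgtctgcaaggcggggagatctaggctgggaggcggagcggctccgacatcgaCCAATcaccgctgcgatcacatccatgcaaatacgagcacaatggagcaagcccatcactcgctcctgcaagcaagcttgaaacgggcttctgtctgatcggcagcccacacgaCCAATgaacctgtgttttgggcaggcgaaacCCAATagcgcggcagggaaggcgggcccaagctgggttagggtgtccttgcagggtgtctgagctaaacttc
Chd8 promoter: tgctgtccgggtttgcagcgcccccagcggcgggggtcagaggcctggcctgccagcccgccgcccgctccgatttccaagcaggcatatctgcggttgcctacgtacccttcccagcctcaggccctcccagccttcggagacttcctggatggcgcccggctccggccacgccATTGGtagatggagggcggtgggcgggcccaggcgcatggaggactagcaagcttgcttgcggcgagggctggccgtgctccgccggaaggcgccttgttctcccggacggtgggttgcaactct
The Chd6 window lies at chr2:161109037-161109336 on the minus strand and the Chd8 window at chr14:52257711-52258010 on the minus strand. RefSeq windows were found for 5 of the 9 members, Chd4, Chd5, Chd6, Chd8 and Chd9. Both strands were searched for every motif named below. The CCAAT box was present 3 times in the Chd6 window and 1 time in the Chd8 window, and of 32851 windows of the same length 37.41% held it at least 1 time and 3.37% at least 3 times. The GC box, spelled GGGCGG, was present 1 time in the Chd6 window and 3 times in the Chd8 window, and 35.66% of all windows held it at least 1 time and 10.71% at least 3 times. The TATA box, spelled TATAAA, was in neither window and in 13.62% of all windows. Neither window held TGACGTCA, TGACG or CACGTG, which were in 1.79%, 20.81% and 7.15% of all windows. The Chd6 window had 20 CpG dinucleotides and a GC content of 61.0%, and the Chd8 window had 26 CpG and 69.3%. A match is a description of these letters and not evidence of a bound factor.

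The genes are scattered over the genome (GRCm38, GENCODE M21). Chd6 (ENSMUSG00000057133) spans chromosome 2, 160946978 to 161109075, on the minus strand. Chd7 (ENSMUSG00000041235) lies on chromosome 4, 8690406 to 8867659, plus strand, and Chd5 (ENSMUSG00000005045) on the same chromosome, 152338651 to 152390194, plus strand. Chd8 (ENSMUSG00000053754) lies on chromosome 14, 52198151 to 52257780, minus strand, and Chd9 (ENSMUSG00000056608) on chromosome 8, 90828352 to 91054516, plus strand. Chd3 (ENSMUSG00000018474) lies on chromosome 11, 69343273 to 69369406, minus strand, and Chd4 (ENSMUSG00000063870) on chromosome 6, 125095981 to 125130591, plus strand. Chd1 (ENSMUSG00000023852) lies on chromosome 17, 15704967 to 15772610, plus strand, and Chd2 (ENSMUSG00000078671) on chromosome 7, 73426638 to 73541830, minus strand. All 9 are protein coding, and the table holds 1 value per gene and library, with no split by exon or isoform.

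Their transcripts are long. The longest transcript ran from 6697 bases in Chd4 to 12008 bases in Chd9, longer than the longest transcript of 90.2% to 98.8% of the tested genes. Aligned coding sequences were 61.5% identical between Chd1 and Chd2, 70.4% to 73.7% identical among Chd3, Chd4 and Chd5, and 57.2% to 62.9% identical among Chd6 to Chd9. Identity between subfamilies lay between 43.6% and 49.5%. These similarities left little shared text at the scale of a read: of the stretches of 31 bases in a member's transcripts, at most 0.1% occurred in another member. Chd2 was the exception towards other genes, with 18.67% of its stretches shared, mainly with 1810026B05Rik, which overlaps it on the same strand, so its values are uncertain. The share was 5.94% for Chd8, where Gm26590 lies antisense, 4.23% for Chd9 and 1.61% for Chd6.

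Normalized counts summed per library to between 30.98 M and 32.57 M (M, mega), which does not show how deeply a library was sequenced, and the depth is unknown. Neuronal, astrocyte and oligodendrocyte marker genes were above 0 in every library. One library stood apart from its group. On the first principal component of all tested genes, with 12.9% of the variance, HT control replicate 6 lay at 31.3, while HT control replicates 1 to 5 lay between -12.7 and 5.2. HT shock libraries lay between 11.4 and 26.0, WT shock libraries between -16.5 and -2.5 and WT control libraries between -18.5 and 1.6. Member calls that change without HT control replicate 6 are given with and without it. Grin2b averaged 10704 ± 655 normalized counts in the 6 HT shock libraries, 12301 ± 1678 in the 6 HT control libraries, 12833 ± 1389 in the 5 WT shock libraries and 13621 ± 1019 in the 6 WT control libraries (mean ± SD). Its log2 difference between HT shock and WT shock was -0.26 ± 0.08 (SE, limma adjusted p = 0.0507), and it passed the threshold of 0.05 in 5 of 11 alternatives and in 6 of the 23 fits that left out a library. The allele changes an amino acid, so this level does not check the genotype labels.

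Every member was expressed in every library, and the family covered a wide range of levels. Per kilobase of longest transcript, and as the mean over 23 libraries, the normalized count was 2696.5 for Chd3, 1040.9 for Chd4, 977.3 for Chd5, 536.9 for Chd9, 448.1 for Chd8, 327.9 for Chd6, 259.9 for Chd2, 187.1 for Chd7 and 107.8 for Chd1. The 3 NuRD motors were thus the 3 highest members. Each member was above the next lower one in all 23 libraries, except that Chd4 was above Chd5 in 18 of 23. The ranges over libraries overlapped between Chd4 and Chd5, Chd9 and Chd8, Chd8 and Chd6, Chd6 and Chd2, and Chd2 and Chd7, so the order of these neighbours rests on the within-library comparison. The scale depends on the transcript taken as the length, since the shares of isoforms are not in the table.

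**Figure D1:**
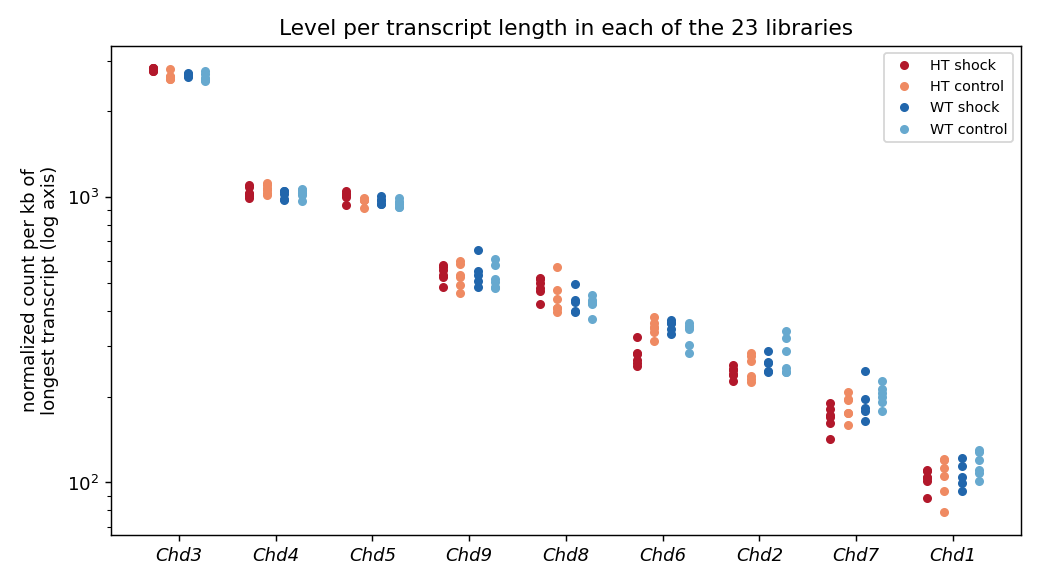
Normalized count per kilobase of longest transcript (log axis) of each CHD gene in each of the 23 libraries, with members ordered by mean and points coloured by group. Chd3 stands above all other members, Chd1 lies lowest, and the points of Chd4 and Chd5 lie at nearly the same height.

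Variation between libraries was lower for the NuRD motors than for the other 6 members. The coefficient of variation over 23 libraries, which includes differences between groups, was 3.39% for Chd3, 3.89% for Chd4 and 3.7% for Chd5. In the other 6 members it lay between 8.93% for Chd9 and 12.42% for Chd7. For Chd6 it was 11.69%, against 4.34% in WT shock to 9.49% in WT control within single groups. The standard error of the log2 difference between HT shock and WT shock was 0.03 to 0.04 for the NuRD motors and 0.06 to 0.10 for the other 6. The text below gives levels as normalized counts and differences on the log2(normalized count + 1) scale, with the first-named group minus the second.

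Foot-shocked heterozygotes had less Chd6 messenger RNA than foot-shocked wild types. In this comparison 1 of the 9 members passed the threshold of a limma adjusted p of 0.05, Chd6, which was lower, against 9.28% of all tested genes called in either direction, 5.33% called lower and 3.95% called higher. Higher genes were thus 42.5% of the 1589 calls, and 54% of 911 after adjusting for transcript length and GC content. A count of 1 in 9 is near that background. Unadjusted p-values were under 0.05 for 4 members, Chd3, Chd6, Chd7 and Chd8, against 27.9% of all genes. The median log2 difference of the 9 members was -0.008, beside 0.00368 over all genes tested. In bulk tissue, fewer cells that express a gene and less RNA per cell cannot be told apart.

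**Figure D2:**
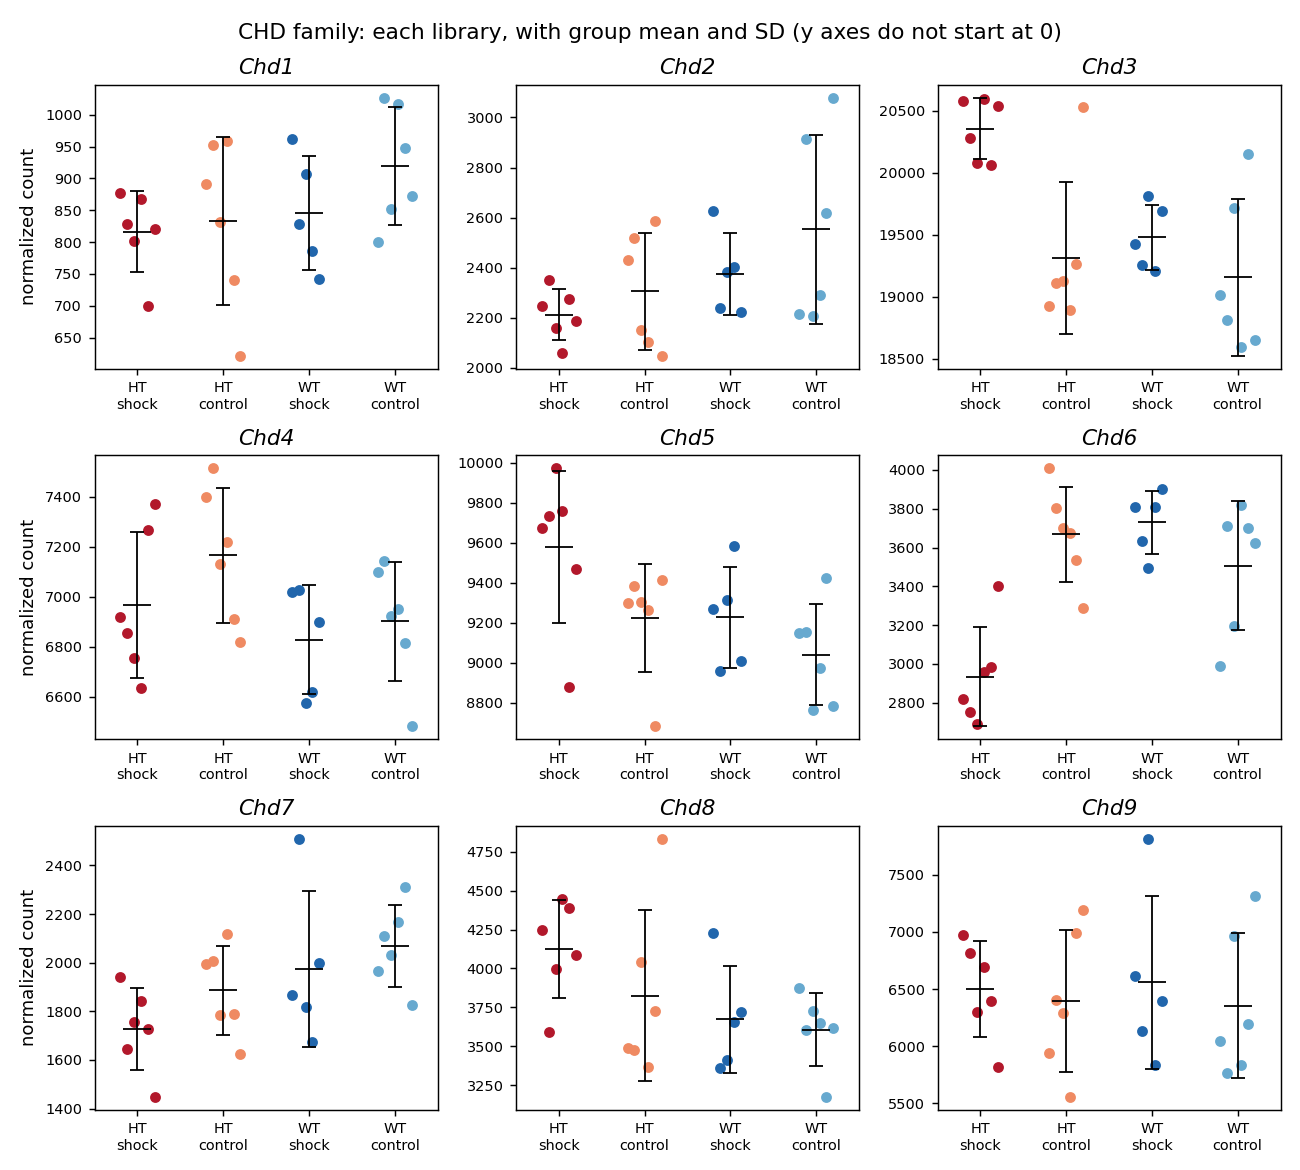
Normalized count of each of the 9 CHD genes (y axes do not start at 0) in the 4 groups. Points are libraries and the lines give the mean and SD of each group. In the Chd6 panel the 6 HT shock libraries lie between 2688.5 and 3401.5, all below the 5 WT shock libraries, and in the Chd3 panel they lie above all 5.

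Chd6 encodes a broadly expressed remodeller, and mice with a deletion in its motor domain are known for impaired coordination. Chd6 had 2688.5 normalized counts at the lowest, 2889.6 at the median and 3401.5 at the highest in HT shock libraries, against 3807.7, 3635.7, 3496.2, 3809.6 and 3900.1 in WT shock libraries. All 6 HT shock libraries lay below all 5 WT shock libraries. The means were 2934 ± 256 in HT shock (SD, n = 6) and 3729.9 ± 161.9 in WT shock (SD, n = 5). The log2 difference was -0.35 ± 0.06 (SE, 95% interval -0.48 to -0.22), a fold of 0.785, with a limma adjusted p of 0.0037. By p-value Chd6 ranked 34 of the 17118 genes. Groups that did not overlap were found for 8.57% of all genes tested.

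The Chd6 difference passed in each of the 11 alternatives tried and in each of the 23 fits that left out 1 library. Without 1 library the log2 difference lay between -0.39 and -0.33 and the adjusted p between 0.000563 and 0.0152. Adjusting the libraries for the length and GC content of transcripts moved it most, to -0.22 (limma adjusted p = 0.00912).

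Within heterozygotes, the mean of Chd6 was also lower after foot-shock, but the difference did not pass the threshold with the settings used throughout. The HT shock libraries given above stood against 3288.3 normalized counts at the lowest, 3687.2 at the median and 4008.1 at the highest in HT control libraries. In HT shock, 5 of 6 libraries lay below every HT control library, and replicate 6, at 3401.5, lay above the lowest of them. The groups overlapped in this way for all 9 members, and 0.286% of all genes had groups that did not overlap. The means were 2934 ± 256 in HT shock and 3668.3 ± 243.6 in HT control (SD, n = 6 each). The log2 difference was -0.32 ± 0.06 (SE, 95% interval -0.45 to -0.20), a fold of 0.799, with a limma adjusted p of 0.0675 and the rank of 3 by p-value. No gene of the 17118 was called in this comparison, 0.0%, and 2352 genes, 13.7%, had an unadjusted p under 0.05, among them 2 of the 9 members, Chd6 and Chd3.

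This result turned on single libraries. Without HT control replicate 6, whose Chd6 value of 3288.3 was the lowest of its group, the log2 difference was -0.35 with a limma adjusted p of 0.00173. Without HT shock replicate 6 it was -0.37 (adjusted p = 0.0172), and without WT control replicate 1 it was -0.32 (adjusted p = 0.0443). Over all 23 omissions the adjusted p lay between 0.00173 and 0.281, with the highest value without HT control replicate 1. The comparison also passed with library weights (-0.37, adjusted p = 0.000634), with the leading residual component added as a covariate (-0.32, adjusted p = 0.023) and with the length and GC correction (-0.24, adjusted p = 0.0374). The residual component came from the residuals of the group fit, so it could change the spread but not the difference. Over all genes, 4 were called here with the residual component and 4 with the length and GC correction. Without HT shock replicate 6 the count was 6, and without WT control replicate 1 it was 4. With library weights 2792 were called, and 2064 without HT control replicate 6. That replicate had the lowest weight, 0.24. Both comparisons use the same HT shock libraries.

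No difference in Chd6 was detected between genotypes without shock or in wild types after shock. WT control libraries had 2990.2 normalized counts at the lowest, 3661.9 at the median and 3816.8 at the highest, and averaged 3505.5 ± 332.6 (SD, n = 6). Between HT control and WT control the log2 difference was 0.07 ± 0.06 (SE, 95% interval -0.05 to 0.19, limma adjusted p = 0.661). In WT shock against WT control it was 0.09 ± 0.06 (SE, 95% interval -0.04 to 0.22, limma adjusted p = 0.998). Neither interval reached below -0.05. The genotype by shock interaction, the shock difference in HT minus the shock difference in WT, was -0.42 ± 0.09 (SE, 95% interval -0.60 to -0.24). Its unadjusted p of 5.61e-05 ranked 1 among the 17118 genes, and its limma adjusted p of 0.552 did not pass. It passed with library weights (-0.47, adjusted p = 0.0152) and in no fit that left out a library, where the adjusted p lay between 0.0615, without HT control replicate 6, and 0.828.

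**Figure D3:**
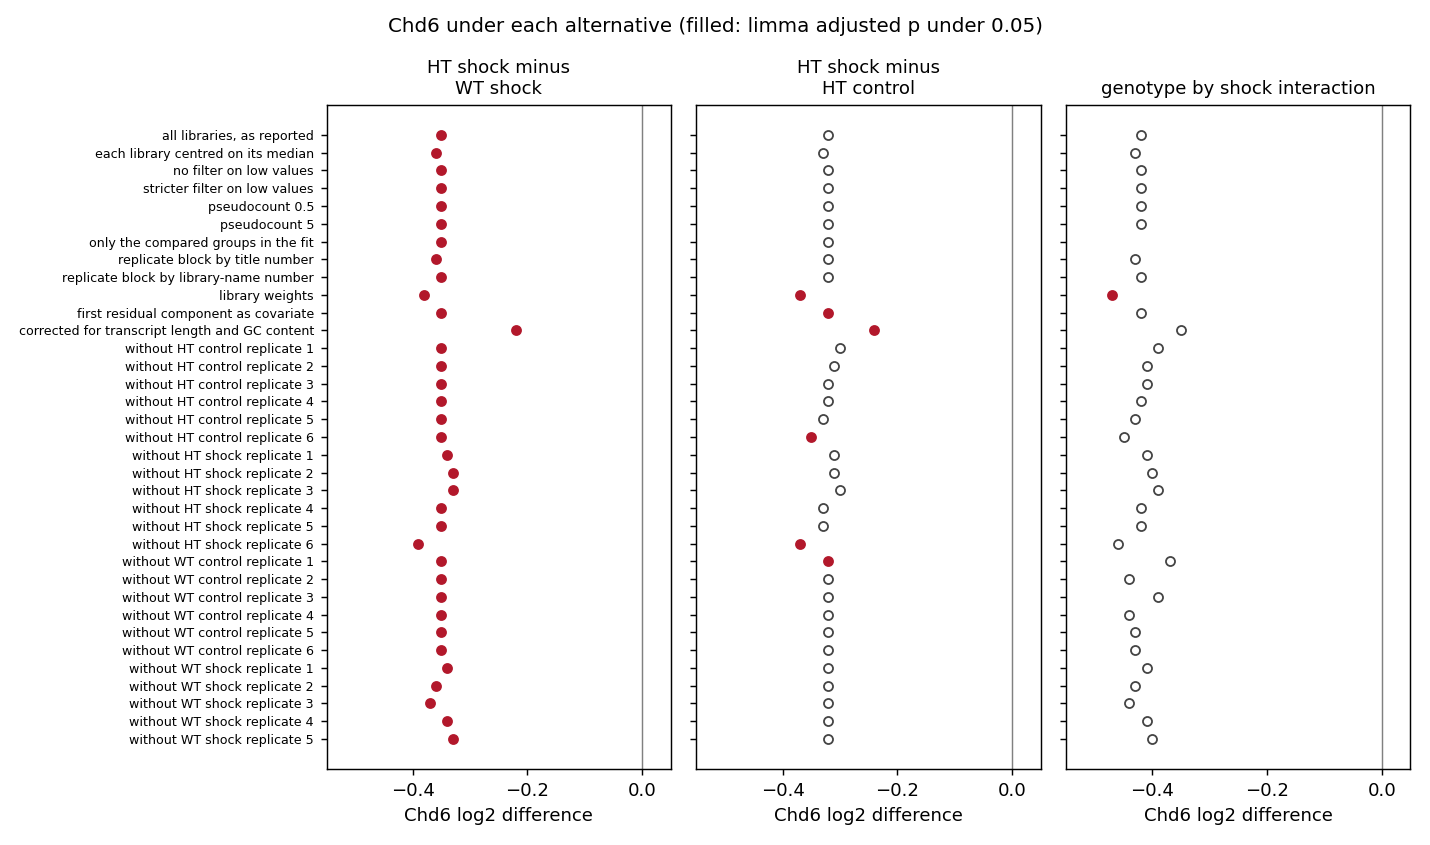
Log2 difference of Chd6 for HT shock minus WT shock, HT shock minus HT control and the interaction, 1 row per processing alternative or left-out library, filled where the limma adjusted p was under 0.05. Every point is negative in all 3 panels, and all points of the first panel, 3 leave-out points and 3 alternatives of the second and 1 of the third are filled.

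Markers of several cell types moved with Chd6 between HT shock and WT shock. Over all genes tested, 5.33% were called lower and 3.95% higher in this comparison. Of 12 markers of striatal projection neurons, 9 were lower in HT shock, with Adora2a, the adenosine receptor of the indirect pathway, at -0.69 ± 0.12 (SE, limma adjusted p = 0.00377) and Drd1, the dopamine receptor of the direct pathway, at -0.53 ± 0.11 (SE, limma adjusted p = 0.00859). The median of the 12 was -0.462. Their summed normalized counts ran from 30407 to 44825 in HT shock, 39178 to 49677 in HT control, 49562 to 50500 in WT shock and 49957 to 55585 in WT control. As for Chd6, the HT shock sums all lay below the WT shock sums. The HT control sums also lay below all WT control sums, which was not so for Chd6.

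Some oligodendrocyte, astrocyte and cerebellar markers were lower as well. Among oligodendrocyte markers 5 of 8 passed, all lower, with sums of 184523 to 230406 in HT shock, 210302 to 236673 in HT control, 222642 to 280246 in WT shock and 204504 to 254131 in WT control. Among astrocyte markers 2 of 8 passed, both lower, with sums of 105584 to 119774 in HT shock, 105664 to 127294 in HT control, 122107 to 128098 in WT shock and 116189 to 126765 in WT control. Among cerebellar granule cell markers 2 of 7 passed, both lower, with sums of 26382 to 33118 in HT shock, 29673 to 36642 in HT control, 29652 to 38808 in WT shock and 31236 to 35338 in WT control. Among general neuronal markers, 2 of 8 were higher and 1 lower, with sums of 229069 to 248494 in HT shock and 221927 to 239718 in WT shock. With 1 library left out, the lower count was 9 or 10 for striatal neurons, 2 to 5 for oligodendrocytes (2 without HT shock replicate 1, 2 or 3 or WT shock replicate 2, 4 or 5), 2 to 4 for astrocytes (4 without HT control replicate 6) and 1 to 3 for granule cells. Over all genes, 913 were called lower with all libraries. That count also moved, to 217 without HT shock replicate 1 and 1709 without HT control replicate 6.

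Some markers of other neurons were higher in HT shock. Of 5 markers of glutamatergic neurons 2 were higher in HT shock, Slc17a7, a vesicular glutamate transporter, at 0.25 ± 0.05 (SE, limma adjusted p = 0.0045) and Neurod6, a transcription factor of forebrain excitatory neurons, at 0.33 ± 0.05 (SE, limma adjusted p = 0.00337). The median of the 5 was 0.139, and their sums ran from 95940 to 106389 in HT shock, 92953 to 99360 in HT control, 90673 to 101994 in WT shock and 93147 to 101063 in WT control. Each alternative and omission called 2 or 3 of them higher and 0 lower. Of 6 markers of inhibitory neurons, the neuropeptide gene Sst was higher at 0.42 ± 0.07 (SE, limma adjusted p = 0.0035) and the GABA synthesis gene Gad2 lower at -0.20 ± 0.06 (SE, limma adjusted p = 0.038), and the call of Gad2 was absent without any 1 of HT shock replicates 1 to 4 or WT shock replicates 1, 2, 3 and 5. Sums of the inhibitory markers overlapped, with 32937 to 35016 in HT shock, 32388 to 33958 in HT control, 32697 to 34549 in WT shock and 33437 to 36020 in WT control.

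Of 6 endothelial markers 5 lay below 0, the median being -0.200, and limma called 0, with 2 unadjusted p-values under 0.05. Their sums ran from 2797 to 3956 in HT shock, 3191 to 3814 in HT control, 3152 to 4022 in WT shock and 2778 to 3715 in WT control. When a library was omitted, 1 of them was called lower if that library was replicate 6 of HT shock, replicate 6 of HT control or replicate 3 of WT control. Limma also called 0 markers of oligodendrocyte precursors, microglia, choroid plexus and dividing cells, with 1, 0, 0 and 2 unadjusted p-values under 0.05 and medians of -0.110, 0.072, 0.066 and 0.178. No marker of any list was at 0 in any library. The part of these cell types in the Chd6 difference was not tested.

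**Figure D4:**
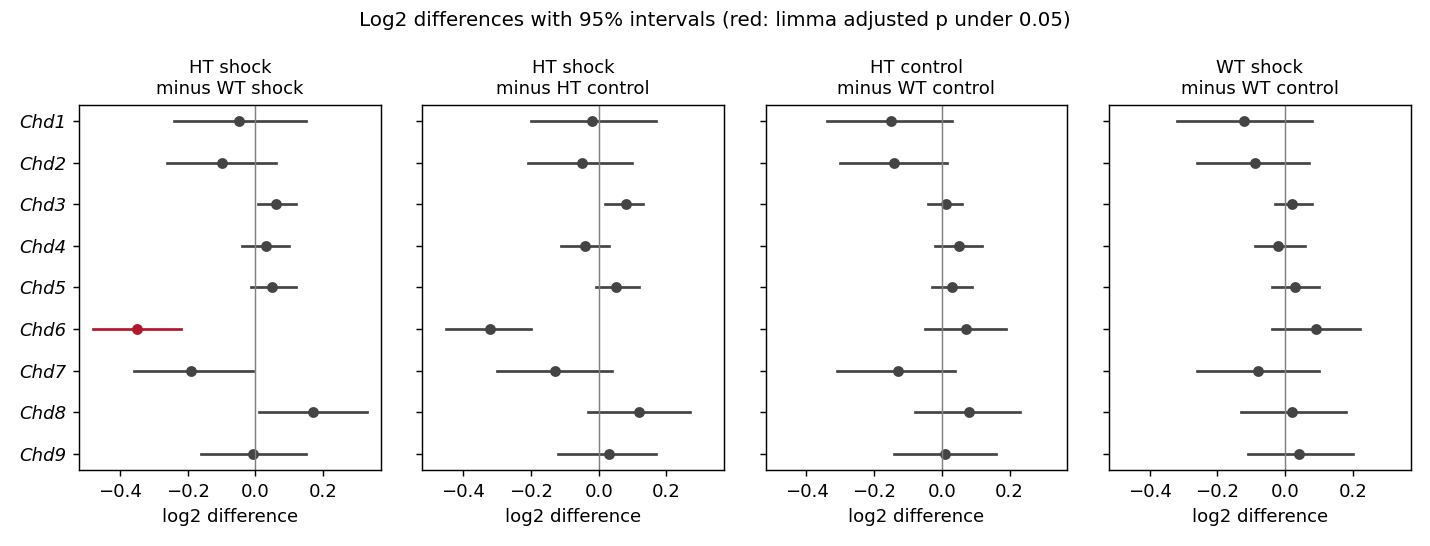
Log2 differences of the 9 CHD genes in 4 comparisons with their 95% intervals, in red where the limma adjusted p was under 0.05. Chd6 at -0.35 in HT shock minus WT shock is the single red point, and its interval in HT shock minus HT control also lies wholly below 0.

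The other members of the Chd6 to Chd9 subfamily did not pass in any comparison with all libraries. Chd7, the member mutated in CHARGE syndrome in humans, had 1448.1 normalized counts at the lowest, 1741.1 at the median and 1939.1 at the highest in HT shock libraries, against 1869.0, 2509.1, 1819.4, 1674.1 and 1999.4 in WT shock libraries. The groups overlapped, and WT shock replicate 2, at 2509.1, was the highest Chd7 value of all 23 libraries. The log2 difference was -0.19 ± 0.09 (SE, 95% interval -0.36 to -0.0060, limma adjusted p = 0.166), and it was -0.10 without WT shock replicate 2. Chd7 averaged 1726.3 ± 169.3 in HT shock, 1886.1 ± 182.7 in HT control and 2067.8 ± 167.9 in WT control (SD, n = 6 each). Its log2 difference was -0.13 in HT shock against HT control and also in HT control against WT control, with limma adjusted p-values of 0.485 and 0.529.

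Chd8, the member linked to autism in humans, had the opposite sign to Chd6 in the comparison of shocked groups. It had 3588.2 normalized counts at the lowest, 4167.2 at the median and 4443.4 at the highest in HT shock libraries, against 4224.9, 3362.0, 3410.5, 3652.6 and 3717.3 in WT shock libraries. In HT shock, 3 of 6 libraries lay above every WT shock library. The log2 difference was 0.17 ± 0.08 (SE, 95% interval 0.0092 to 0.33, limma adjusted p = 0.156), and it did not pass in any alternative. With the length and GC correction it was 0.28 (adjusted p = 0.111).

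The highest Chd8 value of all 23 libraries, 4833.3, was in HT control replicate 6, while that group had a median of 3609.6. The log2 difference of Chd8 between HT shock and HT control was 0.12 ± 0.07 (SE, limma adjusted p = 0.47) with all libraries and 0.19 ± 0.06 (SE, limma adjusted p = 0.0474) without that replicate. Over all genes 2064 were called in this comparison without it, against 0 with all libraries. WT control libraries averaged 3606.7 ± 234.8 (SD, n = 6). The 6 measured partners of CHD8 were the subunits Wdr5, Ash2l, Rbbp5 and Dpy30 shared by histone methyltransferase complexes, the Wnt effector Ctnnb1 and the insulator protein Ctcf. By limma 0 of the 6 were called in HT shock against WT shock, with 1 unadjusted p under 0.05 and a median of -0.003. The smallest unadjusted p-values belonged to Wdr5, at 0.11 ± 0.05 (SE, limma adjusted p = 0.16), and Dpy30, at 0.12 ± 0.06 (SE, limma adjusted p = 0.205).

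Chd9, a less studied member of the subfamily, had nearly equal means in all groups. It averaged 6498.5 ± 418.7 in the 6 HT shock libraries, 6395.1 ± 619.7 in the 6 HT control libraries, 6557.2 ± 762.3 in the 5 WT shock libraries and 6353.8 ± 637 in the 6 WT control libraries (mean ± SD). The log2 difference between HT shock and WT shock was -0.0081 ± 0.07 (SE, 95% interval -0.16 to 0.15, limma adjusted p = 0.96), an interval in which folds from 0.894 to 1.11 lie. The highest Chd9 value was 7816.3 in WT shock replicate 3.

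The NuRD motors differed by small amounts, and none passed with the settings used throughout. Chd3 had 20065.7 normalized counts at the lowest, 20409.9 at the median and 20592.9 at the highest in HT shock libraries, against 19427.4, 19252.4, 19809.4, 19208.6 and 19689.0 in WT shock libraries. All 6 HT shock libraries lay above all 5 WT shock libraries, so that with Chd6 there were 2 of 9 members whose groups did not overlap, beside 8.57% of all genes. The means were 20356.3 ± 248.7 in HT shock (SD, n = 6) and 19477.4 ± 264.8 in WT shock (SD, n = 5). The log2 difference was 0.06 ± 0.03 (SE, 95% interval 0.0088 to 0.12, limma adjusted p = 0.119). It passed with library weights (0.07, adjusted p = 0.0354) and with the length and GC correction (0.11, adjusted p = 0.0459).

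Chd3 in HT control libraries ran from 18893.1 to 20529.4 with a median of 19118.4, and the highest of these values was replicate 6. The log2 difference between HT shock and HT control was 0.08 ± 0.03 (SE, limma adjusted p = 0.268). Without HT control replicate 6 it was 0.09 ± 0.02 (SE, limma adjusted p = 0.0105), and with library weights, which lower the influence of libraries that fit their group poorly, it was 0.09 ± 0.02 (SE, limma adjusted p = 0.00823). The lowest weight, 0.24, was that of the same replicate. Over all genes 2064 were called without it and 2792 with the weights, against 0 with the settings used throughout. WT control libraries ran from 18595.3 to 20154.6.

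Chd4, the most widely used NuRD motor, averaged 6965.9 ± 291.9 in the 6 HT shock libraries, 7164.5 ± 269.9 in the 6 HT control libraries, 6827 ± 217.5 in the 5 WT shock libraries and 6901 ± 238.4 in the 6 WT control libraries (mean ± SD). Its log2 difference between HT shock and WT shock was 0.03 ± 0.04 (SE, 95% interval -0.04 to 0.10, limma adjusted p = 0.639), and 0.10 (adjusted p = 0.0598) with the length and GC correction. Chd5, the motor enriched in neurons, averaged 9581.8 ± 380.5 in the 6 HT shock libraries, 9225.3 ± 271.5 in the 6 HT control libraries, 9227.8 ± 252.9 in the 5 WT shock libraries and 9041.6 ± 253.2 in the 6 WT control libraries (mean ± SD). In HT shock, 4 of 6 libraries lay above every WT shock library and 1, replicate 5 at 8878.1, lay below them all. The log2 difference was 0.05 ± 0.03 (SE, 95% interval -0.0121 to 0.12, limma adjusted p = 0.278), and 0.11 (adjusted p = 0.0566) with that correction.

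Of 12 other NuRD subunits, 1 was called in HT shock against WT shock. Cdk2ap1, a small subunit, was higher, at 2450.3 ± 47.3 normalized counts in HT shock (SD, n = 6) and 2260.6 ± 71.8 in WT shock (SD, n = 5), with a log2 difference of 0.12 ± 0.04 (SE, limma adjusted p = 0.0452). It was 0.0129 (limma adjusted p = 0.888) after the length and GC correction and passed in 11 of the 23 fits that left out a library. The median of the 12 was 0.045. Of the 3 partners of Chd4 in the ChAHP complex 0 were called by limma and 0 had an unadjusted p under 0.05, with the transcription factor Adnp at -0.16 ± 0.10 (SE, limma adjusted p = 0.318) and the heterochromatin protein Cbx3 at 0.02 ± 0.03 (SE, limma adjusted p = 0.655).

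The elongation-linked members Chd1 and Chd2 were not called in any comparison. Chd1, which spaces nucleosomes behind RNA polymerase, had 700.3 normalized counts at the lowest, 824.5 at the median and 877.8 at the highest in HT shock libraries, against 962.6, 828.2, 907.0, 786.2 and 741.9 in WT shock libraries. The groups overlapped, and the log2 difference was -0.05 ± 0.10 (SE, 95% interval -0.24 to 0.15, limma adjusted p = 0.785). The lowest Chd1 value of all 23 libraries, 621.2, was in HT control replicate 6. HT control averaged 832.7 ± 132 and WT control 919.1 ± 92.4 (SD, n = 6 each), a log2 difference of -0.15 ± 0.09 (SE, limma adjusted p = 0.522). Without that replicate it was -0.07 (adjusted p = 0.929).

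Chd2, the epilepsy-linked member, averaged 2212.1 ± 101.1 in the 6 HT shock libraries, 2305.5 ± 233.1 in the 6 HT control libraries, 2375 ± 162.7 in the 5 WT shock libraries and 2553.6 ± 377.7 in the 6 WT control libraries (mean ± SD). In HT shock, 3 of 6 libraries lay below every WT shock library. The log2 difference between HT shock and WT shock was -0.10 ± 0.08 (SE, 95% interval -0.26 to 0.06, limma adjusted p = 0.424). For HT control against WT control the difference was -0.14 ± 0.08 (SE, limma adjusted p = 0.49), which was the smallest p among the 9 members in that comparison. Without WT control replicate 6 it was -0.08. Of 7 elongation partners of CHD1, the FACT and PAF1 subunits, 0 were called by limma in HT shock against WT shock, with 1 unadjusted p under 0.05 and a median of 0.056. Of these 7 differences 6 were positive and 1 negative. Paf1 itself was at 0.20 ± 0.07 (SE, limma adjusted p = 0.0616). Cdc73, of the same complex and the 1 negative gene, was at -0.26 ± 0.13 (SE, limma adjusted p = 0.199).

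No member was called in the other 3 comparisons. In HT control against WT control 0 of 9 passed, against 0.0% of all genes. The members' log2 differences apart from Chd6 lay between -0.15 and 0.08, no member had an unadjusted p under 0.05, and 11.1% of all genes did. The highest of them, 0.08 for Chd8, was 0.0054 without HT control replicate 6. The groups overlapped for every member, and did not overlap for 0.421% of all genes. In WT shock against WT control 0 of 9 passed, again against 0.0%, with differences apart from Chd6 between -0.12 and 0.04, no unadjusted p under 0.05, and 3.72% of all genes with one. The groups again overlapped for every member, and did not overlap for 0.374% of all genes. In the interaction 0 of 9 passed, against 0.0%, with values apart from Chd6 between -0.05 and 0.10. One member, Chd6, had an unadjusted p under 0.05 there, as did 6.43% of all genes.

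Other remodellers and the listed partners gave the setting for the family. Of 93 genes in 8 lists, 4 were higher and 4 lower in HT shock against WT shock, 8.6% of the lists, beside 9.28% of all genes. In the SWI/SNF list of 26 genes, Dpf1 at 0.24 ± 0.07 (SE, limma adjusted p = 0.0255) and Actl6b at 0.18 ± 0.05 (SE, limma adjusted p = 0.0342) were higher. Both encode subunits of the neuronal form of that complex. No other gene of the list was called, among them Dpf2, Dpf3, Ss18 and Ss18l1. Actl6a and Phf10, subunits of the form in neural progenitors, were also not called. Over the whole list 14 differences were positive and 12 negative, with a median of 0.021. In the INO80 and SRCAP list of 16 genes, Ino80e was higher at 0.19 ± 0.05 (SE, limma adjusted p = 0.0234) and Ino80d lower at -0.28 ± 0.08 (SE, limma adjusted p = 0.041).

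Among 12 other motor proteins of the SNF2 type, 3 were lower: Atrx, which helps deposit a histone variant in heterochromatin, at -0.43 ± 0.12 (SE, limma adjusted p = 0.0316), Btaf1, which strips the TATA-binding protein from DNA, at -0.35 ± 0.11 (SE, limma adjusted p = 0.0442), and Shprh at -0.28 ± 0.08 (SE, limma adjusted p = 0.0349). Atrx averaged 4846.1 ± 686.7 normalized counts in HT shock (SD, n = 6) and 6476.2 ± 287.8 in WT shock (SD, n = 5). Over the alternatives and omissions, Atrx lay between -0.49 and -0.23, Btaf1 between -0.40 and -0.21 and Shprh between -0.32 and -0.10. With the settings used throughout, 11 of 12 differences in this list were negative, with a median of -0.170. In HT control against WT control 10 of the 12 were negative, with a median of -0.122. In HT shock against HT control it was 11 (median -0.111), and in WT shock against WT control 8 (median -0.020). In the ISWI list of 11 genes 10 were negative in HT shock against WT shock, with a median of -0.088. In HT control against WT control 8 were negative, with a median of -0.044. In HT shock against WT shock limma called 0 of the 11, and 3 had an unadjusted p under 0.05. The smallest p-values there were those of Baz2b at -0.18 ± 0.06 (SE, limma adjusted p = 0.0728) and Rsf1 at -0.20 ± 0.08 (SE, limma adjusted p = 0.0863).

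These 8 calls depended on single libraries, which that of Chd6 did not. Across all 93 genes, 0 were called without HT shock replicate 1, without HT shock replicate 2, without WT shock replicate 1 or without WT shock replicate 2, and 8 higher and 10 lower were called without HT control replicate 6. Over all genes tested, the same omissions in that order called 422, 497, 756, 611 and 2925, beside 1589 with all libraries. After the length and GC correction 3 of the 93 were higher and 1 was lower, beside 911 calls over all genes. With the replicate block by title number 0 of the 93 were called, beside 450 over all genes. In HT shock against HT control 0 of the 93 were called by limma, with 9 unadjusted p-values under 0.05. The same count was 0 in HT control against WT control, with 11 such p-values, 0 in WT shock against WT control, with 4, and 0 in the interaction, with 2.

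**Figure D5:**
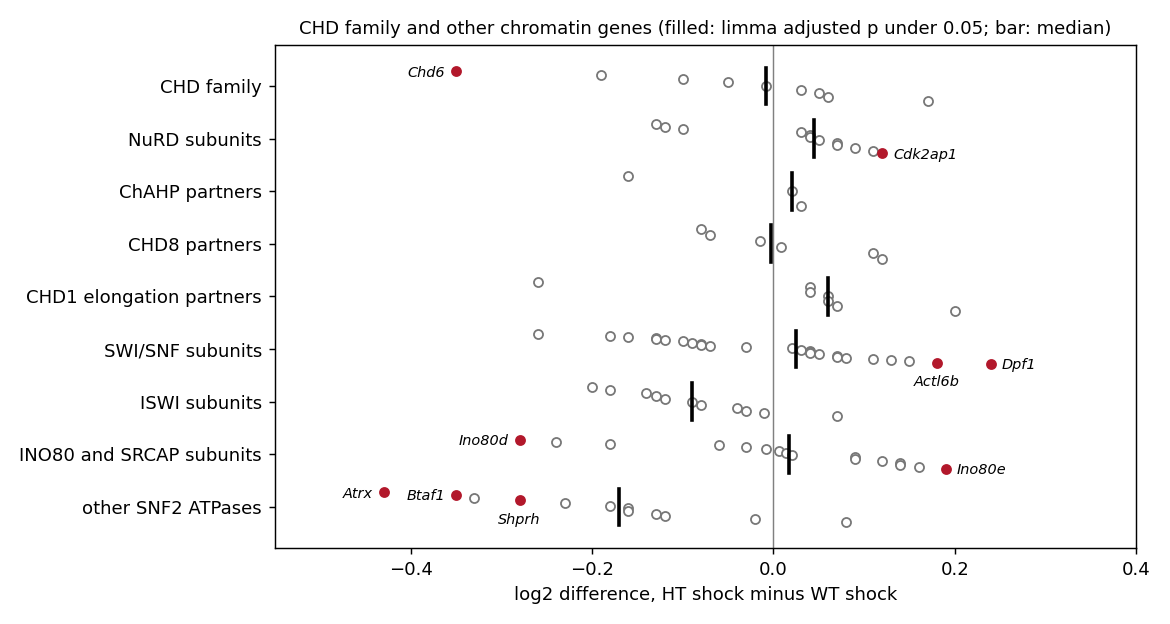
Log2 difference between HT shock and WT shock for the CHD family and 8 lists of chromatin genes, 1 point per gene, filled and named where the limma adjusted p was under 0.05, with a bar at each list's median. Chd6 is the single filled point of its family, and 11 of the 12 other SNF2 ATPases lie left of 0.

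Members did not vary as a block between libraries. After subtraction of group means, which leaves library quality and depth shared by all genes, Pearson's r over 23 libraries between pairs of members ran from -0.60 for Chd4 with Chd9 to 0.45 for Chd1 with Chd6. The tested genes whose residual pattern was most like that of Chd6 were Nrp2 (r = 0.82), Nwd1 (r = 0.81) and Ptprz1 (r = 0.80). Those most like Chd7 were Sptb (r = 0.84), Zic1 (r = 0.77) and Fam135a (r = 0.75), and those most like Chd8 were Slc35c2 (r = 0.78), Lmbr1l (r = 0.78) and Hpse (r = 0.75). For Chd9 they were Kcnk1 (r = 0.82), Hscb (r = 0.81) and Ackr1 (r = 0.81). For Chd3 they were Fbxl15 (r = 0.84), Ddrgk1 (r = 0.82) and Cdc16 (r = 0.80), for Chd4 Lmbrd1 (r = 0.83), Asah1 (r = 0.82) and Dhdh (r = 0.78), and for Chd5 Islr2 (r = 0.76) and Tbrg4 (r = 0.75). For Chd1 they were Topors (r = 0.89), Stard4 (r = 0.89) and Mcl1 (r = 0.88), and for Chd2 Dclk3 (r = 0.74), Irf2 (r = 0.73) and Pdxk (r = 0.72). They were picked by the height of r among the named genes tested and are given as a description.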

How the data were processed

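Brain RNA of 23 mouse libraries was prepared with a stranded mRNA kit, per the labels' protocols. The deposited values are a signal that the authors normalized, with decimals, so they are no raw counts. The submitters' processing notes name Salmon 1.1.0, DESeq2 1.26.0, R 3.6.2 and GRCm38, without roles. Whole reads were not recoverable (16.7% to 21.4% of a library's low values were, to within 0.1, whole multiples of its smallest positive value), and no count model was fitted. Of 24 library columns, 1 matched no sample and was left out. In WT shock the replicate numbers of titles and library names differ, and those of the titles are used.

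Values were put on the log2(normalized count + 1) scale, which understates changes of low genes. The 17118 genes whose mean reached 10 were fitted with limma 3.58.1 in R 4.3.3 (statmod 1.5.0), using all 4 groups together, a mean-variance trend and robust moderation, for 5 comparisons. Benjamini-Hochberg adjustment ran over every gene fitted, with 0.05 as the threshold. Symbols were matched for 18563 of 18578 Ensembl IDs, coding sequences were aligned with mafft 7.526, and figures were drawn in Python 3.11.15 with matplotlib 3.10.9. The members, gene lists and tests were chosen with earlier results of these data known. The text names all 9 members, Grin2b, the called genes of each chromatin list or else the 2 with the smallest p, and for each member the 3 genes of most similar residual pattern, of which 1 is not reported here. Actl6a, Phf10 and the markers named were picked after their values were seen. Alternatives were centring on the median, no filter, a stricter filter (20 in at least 5 libraries), other pseudocounts (0.5 and 5), a fit of the compared groups only, a replicate block by title or library-name number, library weights, a residual component as covariate, a length and GC adjustment, a threshold of 0.1 and omission of each library in turn. The closest libraries correlated at 0.9908, and no libraries were treated as duplicates.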

Additional observations from a re-analysis of the deposited data

Results flagged for a closer look

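In 36 sets of libraries (9 members in 4 groups), 2 libraries lay far from the rest of their group for 1 gene, and chance alone marks about 1 in 20 such sets. Chd3 had 20529.4 normalized counts in HT control replicate 6, above the other 5 libraries of that group, and the gap was 0.772 of the group's range. Chd5 had 8683.0 normalized counts in HT control replicate 5, below the other 5 libraries, and the gap was 0.795 of the range.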

How the results depend on the processing

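The lower Chd6 level in HT shock against WT shock kept its direction and its call under every alternative and omission tried. Of 531 member differences under the alternatives, 510 kept their direction and side of the threshold, 8 passed the threshold newly and 13 changed sign, and under omissions of a library these were 1003, 5 and 27 of 1035. None of those that changed sign was a call, and their cause was not tested. Members called in HT shock against WT shock were 2 with library weights and 2 with the length and GC correction, against 1. Over all genes these counts were 3775, 911 and 1589. In HT shock against HT control, 0 members were called. The count was 1 at an adjusted p of 0.1, beside 4 of all genes, and 2 with library weights, beside 2792. It was 1 with the residual component and 1 with the length and GC correction, beside 4 of all genes in each. With 1 library left out it was 0 to 3. The 3 were called without HT control replicate 6, beside 2064 of all genes. In the interaction 1 member was called with library weights, beside 2 of all genes. The residual component came from the residuals of the group fit, so it could change the spread but not a difference.

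With library weights the sign changed for Chd9 in HT shock against WT shock (0.03), Chd3 (-0.0091) and Chd9 (-0.0115) in HT control against WT control, and Chd9 in the interaction (0.04). With the length and GC correction it changed in HT shock against WT shock for Chd1 (0.10), Chd2 (0.03) and Chd9 (0.14), in HT shock against HT control for Chd1 (0.08), Chd2 (0.03) and Chd4 (0.0059), and in the interaction for Chd4 (0.03), Chd7 (0.02) and Chd9 (0.05). Omitting 1 library at a time, ranges that crossed 0 were, in HT shock against WT shock, Chd1 (-0.09 to 0.0004) and Chd9 (-0.05 to 0.06); in HT control against WT control, Chd3 (-0.0063 to 0.03) and Chd9 (-0.03 to 0.05); in HT shock against HT control, Chd1 (-0.10 to 0.03) and Chd9 (-0.0133 to 0.06); in WT shock against WT control, Chd8 (-0.03 to 0.05) and Chd9 (-0.02 to 0.09); and in the interaction, Chd2 (-0.02 to 0.08), Chd7 (-0.11 to 0.04) and Chd9 (-0.06 to 0.05).

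Libraries of different groups with the same title number had residual correlations from -0.154 to 0.194. Their median was 0.0157, against 0.0037 for libraries with different numbers. A correlation over all genes cannot show whether equal numbers share a batch that moves some genes, so pairing was not settled. With the replicate number as a block, Chd6 was called alone among members (log2 difference -0.36 by title number, -0.35 by library-name number, limma adjusted p = 0.0128 and 0.0143), and no other member call changed. Of the 93 other chromatin genes, 4 higher and 4 lower were called in HT shock against WT shock; these counts were 0 and 0 with the block by title number, 2 and 3 by library-name number, 12 and 11 with library weights, 7 and 7 with the residual component and 4 and 14 with the compared groups alone.

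Over all genes, 1589 were called in HT shock against WT shock, 42.5% of them higher. The count was 2932 with the compared groups alone, 450 and 976 with the replicate block by title and library-name number, 3775 with library weights, 911 with the length and GC correction (54% higher), 3092 at an adjusted p of 0.1, and 422 (without HT shock replicate 1) to 2925 (without HT control replicate 6) with 1 library left out. In HT shock against HT control, 0 were called, against 2792 with library weights and 2064 without HT control replicate 6. The interaction with the compared groups alone was not run, since it needs all 4. Depth is unknown, so no counting error could be set beside these values, and levels per kilobase depend on the transcript length taken.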
